A study of Mus musculus with 2 samples.

Results

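The interferon-inducible p200 family (also called PYHIN or HIN-200) was followed here through 7 genes, Ifi203, Ifi204, Ifi206, Ifi208, Ifi209, Ifi213 and Mndal, taken by symbol from the 31253 genes of a single-cell RNA-seq study of mouse spleen. In the Foxp3YFP-CreKmt2dfl/fl library (fl/fl), the mice carried floxed alleles of Kmt2d, which encodes a histone methyltransferase. In the Foxp3YFP-CreKmt2d+/+ library (+/+), Kmt2d was not floxed. Both genotypes carried YFP-Cre at Foxp3, the gene for the transcription factor of regulatory T (Treg) cells, so Cre follows Foxp3 expression and is shared by both libraries. Cells sorted as CD4+FoxP3+ from the spleens of 3 mice per genotype were pooled into 1 library each. The exons that were floxed and the age and sex of the mice are not given in the labels. With 1 library per genotype no test across mice could be made, so every interval below is a 95% interval for counting error only and the difference between libraries has no replicate check.

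The p200 proteins join a pyrin domain, in most members, to 1 or more HIN domains that bind DNA, and their genes lie side by side in 1 cluster and respond to interferon. Aim2, a relative in the same cluster, binds cytosolic DNA and builds an inflammasome, the complex that activates caspase-1. The product of Ifi204, p204, has been described in mouse macrophages as a DNA sensor acting through Sting1, the adaptor of cytosolic DNA sensing, in the manner of human IFI16. Mndal is named for its likeness to the human myeloid nuclear differentiation antigen MNDA.

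All 7 genes lie on chromosome 1 (GRCm38) within 474 kb, between positions 173468485 and 173942672, and all are annotated as protein-coding. In order along the chromosome they are Ifi206 (chr1:173468485-173491041, minus strand), Ifi213 (chr1:173566283-173599274, minus), Ifi209 (chr1:173630917-173647928, plus), Ifi208 (chr1:173673675-173698395, plus), Ifi204 (chr1:173747293-173766943, minus), Mndal (chr1:173849126-173942491, minus) and Ifi203 (chr1:173920407-173942672, minus). Ifi203 lies almost wholly inside the span of Mndal, yet only 37 exonic bases are shared, 0.552% of the exonic bases of Ifi203.

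Promoter windows of 300 bases (250 before to 50 after an annotated start) were found in RefSeq (GRCm38.p6) for 6 of the 7 genes, not for Ifi204. They were searched on both strands for 2 copies of GAAA with 2 bases between them, the core of the interferon-stimulated response element. This motif stood in a window of 5 of these 6 genes, not in that of Ifi209, and in 9 of the 12 p200 genes with a window, against 3.44% of all 32851 windows. The p200 counts are of genes with the motif in any of their windows, while the 3.44% is of single windows. The windows of Ifi206, Ifi208 and Ifi213 are near copies of each other, so their matches are not separate. The palindrome TTCNNNGAA, bound by STAT dimers, was in none of the 6 genes' windows and in 8.30% of all windows. In 1 window each of Ifi206, Ifi208, Ifi213, Mndal and Ifi203 the motif read GAAATCGAAA on the gene's own strand and began between 35 and 73 bases before the start, 58 bases for Ifi208. Mndal and Ifi203 have a further window each at another annotated start, which held TTTCTCTTTC (the motif on the opposite strand) for Mndal and no match for Ifi203. The windows of Ifi208, Ifi213 and Ifi206 are shown because they are near copies of genes whose library ratios were unlike. In Treg cells Ifi208 was lower in fl/fl, while Ifi213 and Ifi206 were higher without reaching 1.5-fold. In conventional CD4 cells Ifi208 was again lower, while Ifi213 and Ifi206 were within counting error. The Ifi208 window had 98.9% identity to that of Ifi213 over 285 aligned positions and 98.9% to that of Ifi206 over 282. Ifi209, the gene next to Ifi208 on the same strand, is shown beside them and aligned with Ifi208 over 145 positions at 74.5% identity. Capitals mark the motif, and each sequence runs 5′ to 3′ on the gene's strand. In order, they are chr1:173673415-173673714 (plus), chr1:173599223-173599522 (minus), chr1:173491269-173491568 (minus) and chr1:173630609-173630908 (plus).
Ifi208: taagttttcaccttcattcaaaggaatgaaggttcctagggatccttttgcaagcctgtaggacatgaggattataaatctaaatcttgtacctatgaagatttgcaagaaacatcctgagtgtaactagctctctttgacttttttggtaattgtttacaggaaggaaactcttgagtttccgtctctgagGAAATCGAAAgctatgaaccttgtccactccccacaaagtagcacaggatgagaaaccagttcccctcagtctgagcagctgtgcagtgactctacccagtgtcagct
Ifi213: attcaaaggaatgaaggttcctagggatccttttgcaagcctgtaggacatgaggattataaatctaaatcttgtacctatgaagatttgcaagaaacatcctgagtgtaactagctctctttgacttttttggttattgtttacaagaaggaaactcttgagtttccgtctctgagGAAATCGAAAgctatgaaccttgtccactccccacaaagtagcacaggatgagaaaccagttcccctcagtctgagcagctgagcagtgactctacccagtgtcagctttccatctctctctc
Ifi206: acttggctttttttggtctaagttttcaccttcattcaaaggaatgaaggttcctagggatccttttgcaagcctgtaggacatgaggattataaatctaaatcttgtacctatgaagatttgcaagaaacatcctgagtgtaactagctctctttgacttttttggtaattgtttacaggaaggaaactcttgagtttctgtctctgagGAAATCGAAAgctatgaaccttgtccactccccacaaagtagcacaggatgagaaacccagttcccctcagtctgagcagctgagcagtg
Ifi209: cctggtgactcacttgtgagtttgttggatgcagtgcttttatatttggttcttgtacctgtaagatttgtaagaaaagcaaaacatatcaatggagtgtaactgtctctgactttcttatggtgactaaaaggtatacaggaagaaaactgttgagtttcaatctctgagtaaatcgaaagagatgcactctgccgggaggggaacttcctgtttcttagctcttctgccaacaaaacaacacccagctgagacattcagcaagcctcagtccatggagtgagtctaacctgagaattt

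Barcodes numbered 8784 in the fl/fl library and 7947 in the +/+ library, with 63989234 and 53680614 unique molecular identifiers (UMIs, each 1 captured transcript). Of these, 8634 fl/fl and 7790 +/+ barcodes held at least 500 genes and at most 10% mitochondrial UMIs, and 15 barcode sequences occurred in both libraries. Cells were placed in gates by lineage marker UMIs, and 1531 fl/fl and 1356 +/+ barcodes fell outside every gate. The T gate required 3 or more UMIs of Cd3d, Cd3e, Cd3g and Trac with at most 1 of B and 1 of myeloid markers, and held 5788 fl/fl and 5625 +/+ cells. Within it, the Treg gate held 3524 fl/fl and 3654 +/+ cells with no Cd8 UMI. These had a Foxp3 UMI or at least 2 UMIs of Ikzf2 (Helios, high in Treg cells). By Foxp3 UMIs alone, 594 fl/fl and 750 +/+ of them would remain. The conventional CD4 gate (a Cd4 UMI, with no Cd8, Foxp3 or Ikzf2 UMI) held 697 and 705 cells. The CD8 gate (at least 2 Cd8 UMIs, with no Cd4 or Foxp3 UMI) held 339 and 239. Cycling T cells numbered 220 and 88. With Foxp3 UMIs this sparse, sorted Treg cells with none caught may lie in the conventional CD4 gate. The B gate held 745 fl/fl and 245 +/+ cells, the myeloid gate 259 and 366, the natural killer (NK) gate 176 and 153 and the plasma cell gate 136 and 45. Since the sort was for CD4+FoxP3+ cells, the B, NK and myeloid cells are carried-over cells, and their numbers describe the sort and not the spleen. Foxp3 stood at 27.1 CPM (UMIs per 1000000 UMIs of the gate) in the fl/fl Treg gate, against 40.5 CPM in the +/+ Treg gate, and had 0 UMIs in the B, NK and myeloid gates of both libraries. T markers not used for gating (Cd5, Cd28, Lck, Bcl11b and Tcf7) summed to 1853 CPM in the fl/fl T gate and 26.3 CPM in the fl/fl B gate, and to 1953 and 24.8 CPM in the same +/+ gates. Kmt2d itself had 69.1 CPM in fl/fl T gate cells, against 74.5 CPM in +/+ T gate cells, but a 3′ tag reads the transcript's end and does not check a deletion elsewhere in the gene.

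The family as a whole stood at nearly the same level in both libraries, while a single member differed widely. In the T gate the 7 genes summed to 1013 CPM in fl/fl and 990.1 CPM in +/+, a log2 ratio (fl/fl over +/+, as throughout) of 0.03 (0.01 to 0.05). In the B gate the sum was 1061 CPM in fl/fl and 1011 CPM in +/+, a log2 ratio of 0.07 (-0.02 to 0.16). In the myeloid gate it was 605.0 CPM in fl/fl and 544.4 CPM in +/+, a log2 ratio of 0.15 (0.05 to 0.26). Its subsets were within counting error, at 0.12 (-0.04 to 0.28) in dendritic cells and -0.05 (-0.21 to 0.10) in monocytes or macrophages. Neutrophils stood at -0.15 (-0.63 to 0.31), with sums of 101.8 CPM in fl/fl and 113.2 CPM in +/+. They were 62 of 259 fl/fl and 104 of 366 +/+ myeloid cells, and the part of this mix was not tested. NK cells were the only gate with a sum lower in fl/fl and an interval excluding 0, at 656.9 CPM in fl/fl and 782.5 CPM in +/+ and a log2 ratio of -0.25 (-0.43 to -0.08).

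Levels were read by gate before any ratio, and the members followed different patterns. Ifi203, Mndal and Ifi209 had high CPM in T, B, dendritic and monocyte or macrophage cells and low CPM in plasma cells and neutrophils. Plasma cells were deeper, with a median of 17538 UMIs in fl/fl against 6191 in the fl/fl T gate, which lowers CPM for a given number of UMIs per cell. At these unlike depths, 68.4% of fl/fl plasma cells held a Mndal UMI, 46.3% an Ifi203 UMI and 48.5% an Ifi209 UMI. In the fl/fl T gate these shares were 77.4%, 78.1% and 55.4%. With every cell thinned to the same number of UMIs, plasma cells stood well below the T gate. The thinned shares for Mndal, Ifi203 and Ifi209 were 20.1%, 8.21% and 10.4% in fl/fl plasma cells. In the fl/fl T gate they were 49.5%, 49.9% and 29.8%. Ifi203 had 306.1 CPM in fl/fl and 304.1 CPM in +/+ Treg cells, 321.3 and 309.9 CPM in B cells, and 10.4 and 14.4 CPM in neutrophils. Mndal ran beside it at 314.3 CPM in fl/fl and 316.6 CPM in +/+ Treg cells and 20.7 and 34.5 CPM in neutrophils. Ifi209 was highest in the B gate, at 231.6 CPM in fl/fl and 202.9 CPM in +/+, and in monocytes or macrophages, at 227.0 and 214.0 CPM, and the intervals of these levels overlap within each library. Ifi206 and Ifi208 were higher in the Treg, conventional CD4 and CD8 gates than in any gate outside the T lineage of the same library. Among those T cell gates Ifi206 ran from 135.0 CPM in Treg to 158.5 CPM in CD8 cells in fl/fl, and from 99.9 CPM in Treg to 134.9 CPM in conventional CD4 cells in +/+. Ifi213 had 97.9 CPM in fl/fl and 97.7 CPM in +/+ CD8 cells, 80.7 and 80.7 CPM in B cells and 86.0 and 60.0 CPM in monocytes or macrophages, but 43.5 and 31.5 CPM in NK cells, 12.2 and 2.1 CPM in plasma cells and 8.6 and 14.4 CPM in neutrophils. Ifi204 was the reverse, with 250.8 CPM in fl/fl and 281.9 CPM in +/+ monocytes or macrophages, 63.2 and 60.0 CPM in dendritic cells, 38.0 and 29.7 CPM in neutrophils and 2.4 and 1.2 CPM in the T gate.

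**Figure D1:**
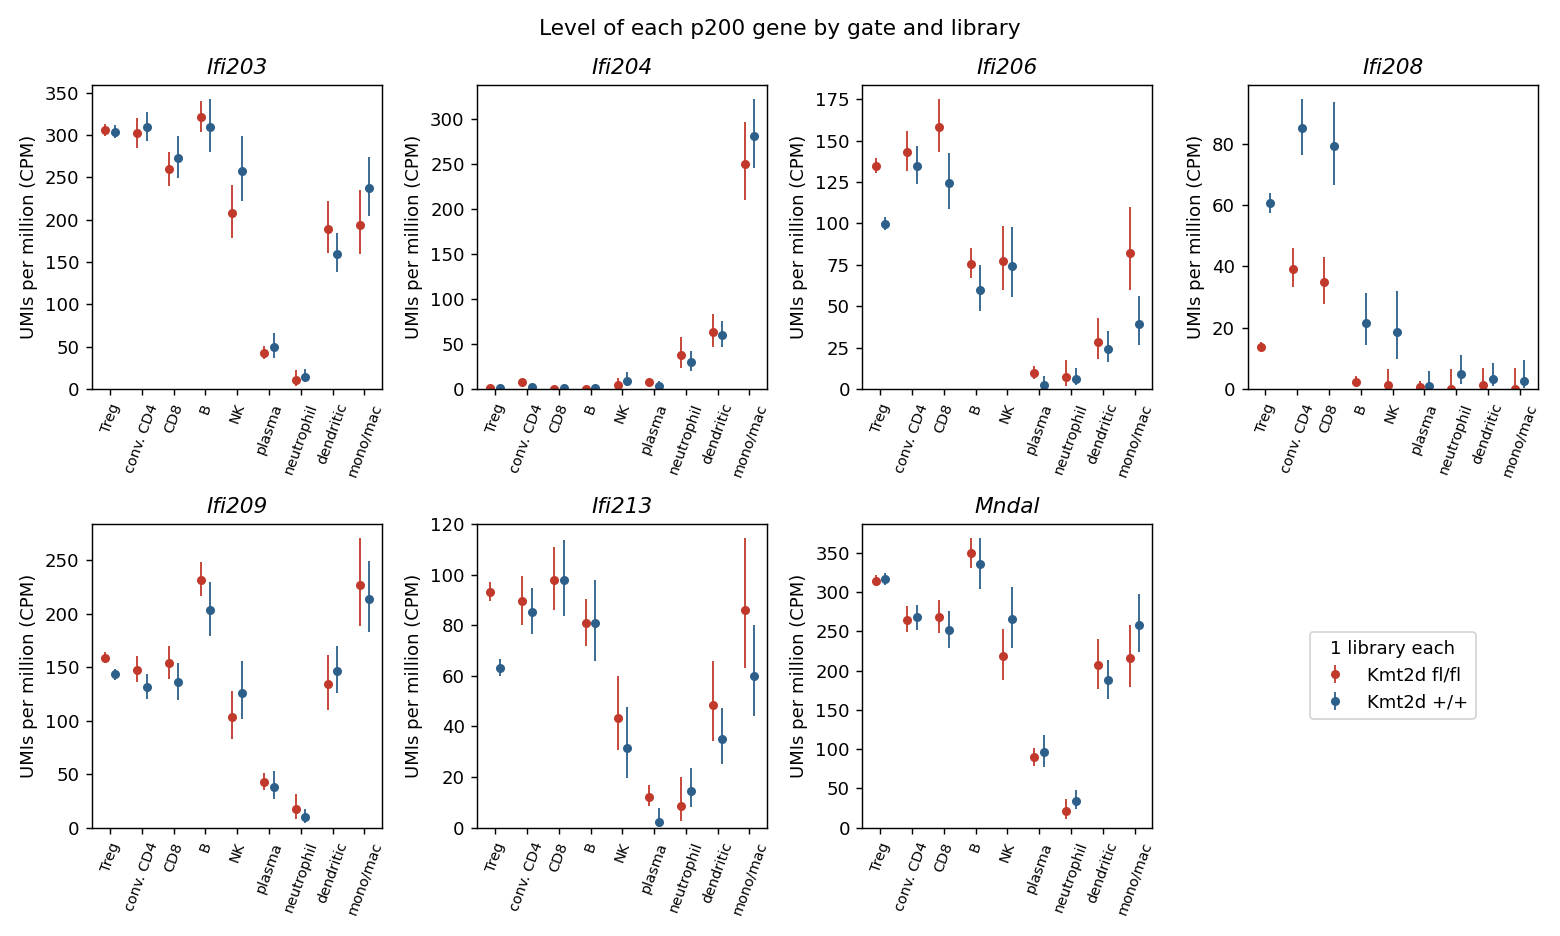
CPM (vertical axis, linear, from 0) for each of the 7 genes in 9 gates, with the fl/fl library in red left of the +/+ library in blue; bars are exact Poisson 95% intervals for counting error, and each point is 1 library. Ifi204 rises above the other gates in monocytes or macrophages (250.8 and 281.9 CPM), and the Ifi208 points of fl/fl lie below those of +/+ in the Treg, conventional CD4, CD8, B and NK gates.

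Ifi208 was the member that differed. In the T gate it had 795 UMIs (20.1 CPM, 18.7 to 21.5) in fl/fl, against 2259 UMIs (66.4 CPM, 63.7 to 69.2) in +/+. It was 3.31-fold lower in fl/fl, with a log2 ratio of -1.73 (-1.85 to -1.61), and only 26 of the 7960 genes measured in this gate had a lower ratio. A gene counted as measured at 10 CPM or more in either library, and as lower or higher when its ratio reached 1.5-fold with an interval excluding 1, a rule of size and not a test. By that rule 1 of the 6 members measured in the T gate (all but Ifi204) was lower and 0 were higher, while 5.79% of all measured genes were lower and 1.83% higher. Over all genes measured there, the median was -0.10 in log2, while the middle of the 6 ranked members lay between Ifi203 (0.01) and Ifi209 (0.15). Taking the median ratio over genes as 0, in place of total UMIs, moves every T gate ratio up by 0.11, to -1.61 for Ifi208.

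The lower Ifi208 level was found in each lymphoid gate with enough UMIs. In Treg cells it had 13.8 CPM in fl/fl (358 UMIs), against 60.7 CPM in +/+ (1345 UMIs), a log2 ratio of -2.14 (-2.31 to -1.97). In conventional CD4 cells it had 39.2 CPM in fl/fl and 85.1 CPM in +/+, a log2 ratio of -1.12 (-1.40 to -0.84). In CD8 cells it had 34.8 CPM in fl/fl and 79.3 CPM in +/+, a log2 ratio of -1.19 (-1.60 to -0.79). Thus within fl/fl the Treg level lay below both other T cell levels, with intervals that do not touch, and within +/+ it was again the lowest of the 3, by less. The difference of the log2 ratios was -1.02 (-1.35 to -0.70) for Treg minus conventional CD4 cells and -0.95 (-1.38 to -0.53) for Treg minus CD8 cells. Cycling T cells, most of which (158 of 220 in fl/fl and 59 of 88 in +/+) also lie in the Treg gate, had 10.5 CPM in fl/fl and 53.6 CPM in +/+, a log2 ratio of -2.36 (-3.03 to -1.72). Ifi208 was the 1 lower member of 6 measured in each of these 4 gates. Of all measured genes, 9.46% were lower in the Treg gate, 2.81% in conventional CD4, 3.32% in CD8 and 6.12% in cycling T cells, and 2.48%, 2.58%, 2.3% and 4.57% were higher.

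In B cells, which carry no Foxp3 UMI here, Ifi208 had 8 UMIs (2.19 CPM) in fl/fl, against 27 UMIs (21.6 CPM) in +/+. Its log2 ratio of -3.30 (-4.65 to -2.12) rests on these few UMIs, and 1 of 8021 measured genes had a lower one. It was the 1 lower member of 6 measured in a gate where 3.49% of genes were lower and 1.83% higher. The difference of the log2 ratios was -1.57 (-2.72 to -0.43) for B minus T and -1.16 (-2.31 to -0.01) for B minus Treg. Genes lower in both T and B gates were 38 of the 7216 measured in both, or 0.527%, and Ifi208 was the one member among them. With the myeloid gate added, 2 of 6700 genes (0.0299%) were lower in all 3 gates, and Ifi208 was not among those measured in all. NK cells had 1 UMI in fl/fl and 13 UMIs in +/+, a log2 ratio of -3.99 (-9.40 to -1.25), where 5.67% of genes were lower and 2.79% higher.

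Myeloid cells held too little Ifi208 to be measured. There was 1 UMI (0.474 CPM) among the 259 fl/fl cells, against 15 UMIs (4.46 CPM) among the 366 +/+ cells, under the floor of 10 CPM in both. The log2 ratio of -3.23 (-8.63 to -0.53) is given as a description, and its difference from the T gate ratio, -1.50, has an interval of -4.43 to 1.42 that allows a difference either way. Monocytes or macrophages had 0 UMIs in fl/fl and 2 in +/+, dendritic cells 1 and 4, and neutrophils 0 and 5.

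Free RNA from T cells can put UMIs into other droplets, so the level of Ifi208 was set beside that of the T markers not used for gating. In the fl/fl B gate Ifi208 stood at 10.9% of its fl/fl T gate level, against 32.5% in +/+, while the T markers stood at 1.42% in fl/fl and 1.27% in +/+. In the myeloid gate Ifi208 was at 2.37% of its T gate level in fl/fl and 6.71% in +/+, with T markers at 1.95% and 1.54%. The fl/fl myeloid value rests on 1 UMI, too few to set it apart from the level at which T markers appeared there. NK cells express several of these T markers themselves (22.6% in fl/fl and 28.8% in +/+ of the T gate level), which leaves no such yardstick there.

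Shares of cells with an Ifi208 UMI were compared after thinning each cell to 2500 UMIs, because fl/fl T gate cells were deeper (median 6191 UMIs, against 5462 in +/+). After thinning, 5.30% of fl/fl T gate cells (4.74 to 5.92) and 14.0% of +/+ T gate cells (13.1 to 14.9) had a UMI, and before it 11.2% and 26.4%. In the Treg gate the thinned shares were 3.73% in fl/fl and 13.00% in +/+, and in conventional CD4 cells 9.68% and 17.6%. In the B gate they were 0.849% in fl/fl (0.312 to 1.84) and 5.81% in +/+ (3.21 to 9.55), at median depths of 4096 and 4230 UMIs before thinning. In the myeloid gate, low in Ifi208, 0 of 232 fl/fl cells had a UMI, which allows a share of up to 1.58%, against 1.55% of +/+ cells (0.506 to 3.59), at median depths of 7399 and 8572 UMIs. Its monocytes or macrophages gave 0 of 68 fl/fl cells, which allows a share of up to 5.28%, and 2.70% of +/+ cells, at median depths of 5410 and 7223 UMIs. The +/+ B gate share has an interval that overlaps those of both low-level gates (0.329% to 9.42% in monocytes or macrophages), so the shares alone do not set +/+ B cells apart from them. Thinning left out 38 fl/fl and 57 +/+ T gate cells.

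Because the 7 genes are near relatives, the share of the family's UMIs that came from each was compared within a library, which does not depend on scaling between libraries. Ifi208 made up 1.98% of 40150 family UMIs in the fl/fl T gate, against 6.71% of 33669 in the +/+ T gate. In Treg cells the shares were 1.35% in fl/fl and 6.14% in +/+, in conventional CD4 cells 3.94% and 8.38%, and in CD8 cells 3.57% and 8.24%. The B gate had 0.206% in fl/fl and 2.13% in +/+, the NK gate 0.179% and 2.38%, and the myeloid gate 0.0784% and 0.819%. For each Ifi206 UMI, the gene with the near-identical promoter window, there were 0.146 Ifi208 UMIs in fl/fl T gate cells and 0.605 in +/+ T gate cells, and 0.029 and 0.36 in the B gate.

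**Figure D2:**
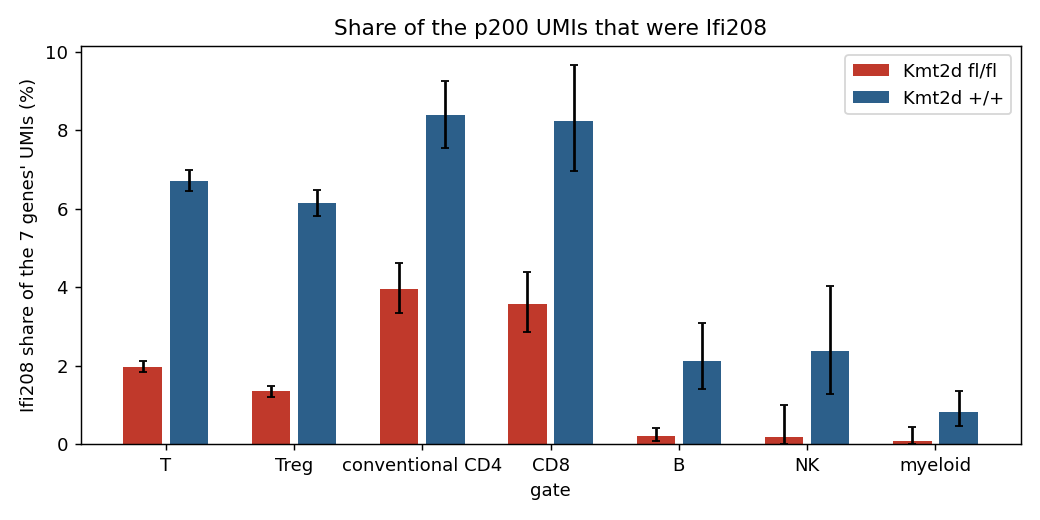
Share of the 7 genes' UMIs that were Ifi208 (vertical axis, %, from 0) by gate, with fl/fl bars in red left of +/+ bars in blue; error bars are exact binomial 95% intervals for counting error. The fl/fl bar is the lower one in all 7 gates plotted, from 1.98% against 6.71% in the T gate to 0.0784% against 0.819% in the myeloid gate.

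Ifi206 and Ifi213, the pair whose promoter windows resemble that of Ifi208, were higher in fl/fl than in +/+ Treg cells, without reaching 1.5-fold. Ifi206 had 135.0 CPM in fl/fl and 99.9 CPM in +/+ Treg cells, a log2 ratio of 0.43 (0.36 to 0.51), but 143.5 and 134.9 CPM in conventional CD4 cells, a log2 ratio of 0.09 (-0.08 to 0.26). The difference between those gates was 0.35 (0.16 to 0.53). Ifi213 had 93.2 CPM in fl/fl and 63.2 CPM in +/+ Treg cells, a log2 ratio of 0.56 (0.46 to 0.66), but 89.4 and 85.1 CPM in conventional CD4 cells, a log2 ratio of 0.07 (-0.15 to 0.29). That difference was 0.49 (0.25 to 0.72). For both genes the libraries differed beyond counting error in Treg cells and within it in conventional CD4 cells. In CD8 cells the genes parted. Ifi206 had a log2 ratio of 0.35 (0.10 to 0.59) there, and its Treg minus CD8 difference of 0.09 (-0.16 to 0.34) was within counting error. Ifi213 stood at 0.00 (-0.29 to 0.29) in CD8 cells, with a Treg minus CD8 difference of 0.56 (0.26 to 0.86). With the median gene set to 0 the Treg ratio of Ifi213 becomes 0.70, which passes 1.5-fold, and that of Ifi206 becomes 0.58, just under it.

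Outside the T gate, in B cells, Ifi213 had 80.7 CPM in both libraries, a log2 ratio of 0.00 (-0.33 to 0.34). The difference for B minus Treg was -0.56 (-0.90 to -0.22). In the same cells Ifi206 had 75.5 CPM in fl/fl and 59.9 CPM in +/+, a log2 ratio of 0.33 (-0.04 to 0.72). In the myeloid gate Ifi206 had 76 UMIs (36.1 CPM) in fl/fl and 66 UMIs (19.6 CPM) in +/+, a log2 ratio of 0.88 (0.38 to 1.38), which made it the 1 higher member of 6 measured, with 0 lower, where 3.91% of all genes were higher and 5.23% lower. The ratio exceeded that of the T gate by 0.55 (0.07 to 1.03). Among monocytes or macrophages Ifi206 had 82.4 CPM in fl/fl and 39.1 CPM in +/+, a log2 ratio of 1.07 (0.37 to 1.79), in a gate where 4.75% of genes were higher and 7.78% lower. Hemoglobin and other erythroid UMIs (4 genes) summed to 10261 CPM in that fl/fl gate, against 462.0 CPM in +/+. Without the 2 fl/fl cells and 1 +/+ cell that held 10 or more of them, the ratio was 1.06 (0.36 to 1.78). Ifi213 had 45.6 CPM in fl/fl and 31.8 CPM in +/+ myeloid cells, a log2 ratio of 0.52 (0.10 to 0.93).

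Small gates added 2 further values past the rule. Ifi213 was higher in cycling T cells, with 174 UMIs in fl/fl and 49 in +/+ and a log2 ratio of 0.69 (0.23 to 1.18), where 4.57% of genes were higher. In plasma cells Ifi213 had 34 UMIs in fl/fl and 2 in +/+, a log2 ratio of 2.53 (0.56 to 5.63), the 1 higher of 4 measured members where 8.32% of genes were higher and 8.57% lower. Neither neutrophils nor dendritic cells had a member past the rule, with 5 and 6 members measured, while 4.63% and 5.03% of their measured genes were higher and 4.56% and 5.94% lower.

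Ifi203 and Mndal, the overlapping pair at the far end of the cluster, showed no difference of size in the main gates. In the T gate Ifi203 had 301.8 CPM in fl/fl and 299.7 CPM in +/+, a log2 ratio of 0.01 (-0.03 to 0.05), and Mndal 301.3 and 301.9 CPM, a log2 ratio of -0.00 (-0.04 to 0.04). With the median gene set to 0 these become 0.12 and 0.11, so a direction for them depends on the scaling. In B cells the log2 ratios were 0.05 (-0.11 to 0.22) for Ifi203 and 0.06 (-0.10 to 0.22) for Mndal, and in myeloid cells 0.10 (-0.12 to 0.32) and -0.01 (-0.22 to 0.19). In NK cells the log2 ratio was -0.31 (-0.62 to -0.00) for Ifi203 and -0.28 (-0.58 to 0.02) for Mndal, short of 1.5-fold.

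Ifi209 had log2 ratios slightly above 0 in all 3 main gates, within counting error in the B gate. It had 156.7 CPM in fl/fl and 141.0 CPM in +/+ T gate cells, a log2 ratio of 0.15 (0.10 to 0.21). The ratio was 0.19 (-0.01 to 0.40) in B cells and 0.25 (0.02 to 0.48) in myeloid cells. Within the myeloid gate, Ifi209 stood at -0.13 (-0.49 to 0.22) in dendritic cells and 0.08 (-0.26 to 0.43) in monocytes or macrophages. Neutrophils, with 10 UMIs in each library, gave 0.85 (-0.57 to 2.27), and NK cells stood at -0.29 (-0.73 to 0.16). Its differences between the main gates were within counting error, at 0.04 (-0.17 to 0.25) for B minus T and 0.10 (-0.13 to 0.33) for myeloid minus T. The NK minus T difference was -0.44 (-0.87 to -0.01), an interval that narrowly excludes 0. Of the 90-base words in the last 500 bases of its transcripts, 58.6% also occur in Ifi214, so the counts of these 2 genes cannot be cleanly told apart. For the other 6 members that share was between 0% and 12.1%, and for Ifi208 it was 1.82%, all with Ifi213.

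**Figure D3:**
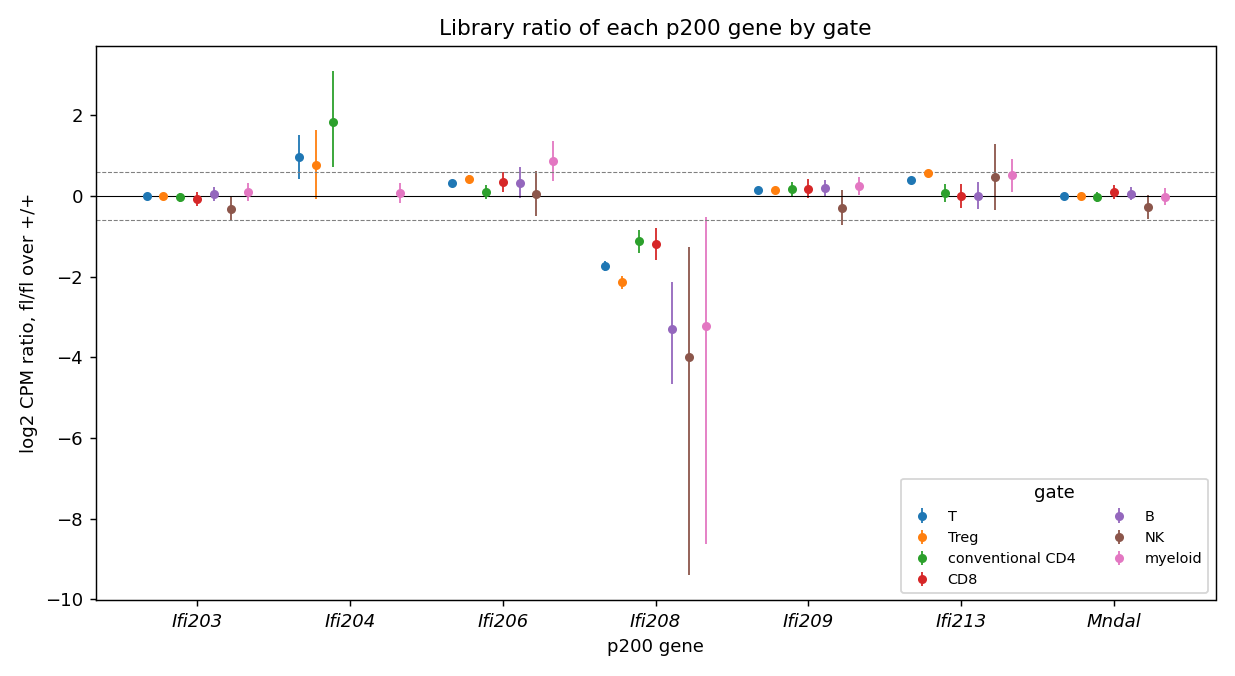
Log2 CPM ratio, fl/fl over +/+ (vertical axis), of each of the 7 genes (horizontal axis) in 7 gates (colours, left to right within a gene in the order of the legend), with 95% counting intervals; dashed lines mark 1.5-fold either way, and ratios with under 10 UMIs in both libraries or 0 in either are not drawn. The Ifi208 points lie below the lower line in every gate drawn, and those of Ifi203, Ifi209 and Mndal lie between the lines.

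Ifi204, the p204 gene, was measured in myeloid cells, where it did not differ in size. The myeloid gate had 215 UMIs (102.0 CPM) in fl/fl and 325 UMIs (96.6 CPM) in +/+, a log2 ratio of 0.08 (-0.18 to 0.33). Of monocytes or macrophages, 40 of 82 fl/fl cells and 60 of 101 +/+ cells held a UMI. In the T gate its 95 UMIs in fl/fl came from 55 of 5788 cells and its 42 UMIs in +/+ from 25 of 5625 cells, with at most 9 and 7 in any cell. The T gate log2 ratio of 0.96 (0.42 to 1.52) is for a gene under the 10 CPM floor, as it also was in the Treg, conventional CD4, CD8, cycling T, B, NK and plasma cell gates. In the B gate it had 0 UMIs in fl/fl and 1 in +/+.

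Since the family responds to interferon, T gate cells were split by their UMIs of a core list of interferon-stimulated genes with no p200 gene in it (Isg15, Ifit1, Ifit3, Ifit3b, Rsad2, Usp18, Oasl1, Rtp4 and Cmpk2). Cells with 0 such UMIs made up 39.1% of fl/fl and 49.5% of +/+ T gate cells, and cells with 5 or more 9.76% and 9.53%. All 7 members were higher in cells with 5 or more core UMIs than in cells with 0, in both libraries. Ifi208 separated the libraries in this rise. It had 20.4, 16.9 and 34.04 CPM in fl/fl cells with 0, 1 to 4 and 5 or more core UMIs, and 40.7, 56.4 and 213.7 CPM in the same bins of +/+. From the lowest to the highest bin that is 1.67-fold in fl/fl and 5.25-fold in +/+, a difference in log2 of -1.65 (-1.97 to -1.33). The library ratio accordingly ran from -0.996 (-1.21 to -0.79) in cells with 0 core UMIs through -1.74 (-1.92 to -1.56) to -2.65 (-2.91 to -2.40).

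The other members rose less steeply in fl/fl as well, by smaller differences. Ifi206 was 3.10-fold higher in the highest than in the lowest bin in fl/fl and 5.26-fold in +/+, Ifi213 2.75-fold and 4.69-fold, Ifi209 2.51-fold and 3.40-fold, Ifi203 2.02-fold and 3.14-fold, and Mndal 1.99-fold and 2.80-fold. Ifi203 had 255.0 CPM in fl/fl and 223.8 CPM in +/+ cells with 0 core UMIs, but 514.4 and 703.0 CPM in cells with 5 or more. Ifi213 was higher in fl/fl by 0.63 (0.49 to 0.77) in cells with 0 core UMIs and stood at -0.14 (-0.28 to 0.00) in cells with 5 or more. The core list itself was less abundant in the highest bin of fl/fl (1366 CPM) than of +/+ (1999 CPM), and the bins depend on depth (median 7054 UMIs in fl/fl and 5960 in +/+ in the highest bin). The part of that difference in the steepness was not tested. With bins set on cells thinned to 2500 UMIs, Ifi208 ran from -1.13 in cells with 0 core UMIs to -2.37 in cells with 2 or more.

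**Figure D4:**
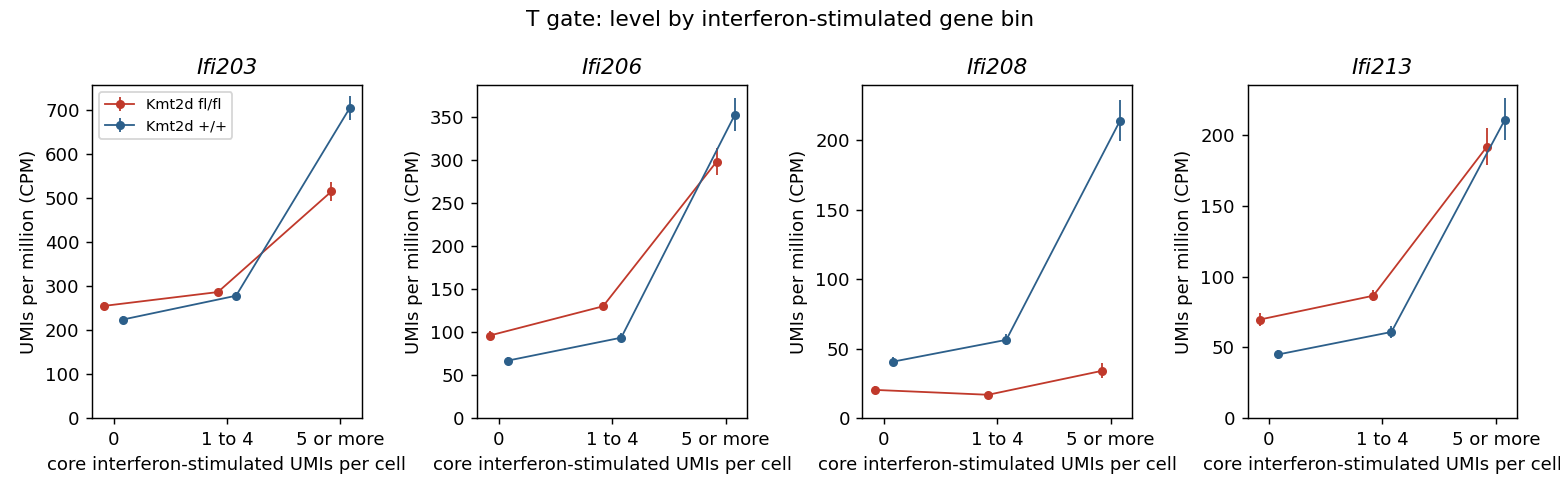
CPM (vertical axes, linear, from 0) of 4 members in T gate cells with 0, 1 to 4, and 5 or more UMIs of the core interferon-stimulated genes (horizontal axes), fl/fl in red and +/+ in blue, with Poisson 95% intervals. Ifi208 reaches 34.04 CPM in fl/fl and 213.7 CPM in +/+ in the highest bin, and for Ifi203 and Ifi206 the order of the libraries turns between the lowest and the highest bin.

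Ifi204 had 10 UMIs in fl/fl cells with 0 core UMIs and 45 in those with 5 or more, and 4 and 36 UMIs in the same bins of +/+. Its 13.4-fold and 37.7-fold ratios therefore rest on few UMIs, and their difference in log2, -1.49, has an interval of -3.28 to 0.30.

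Along the chromosome, only 9 of the 50 genes within 1 Mb of the 7 members were measured in the T gate, namely 6 members, Aim2, Ifi214 and Tagln2. Aim2 had 46.9 CPM in fl/fl and 69.4 CPM in +/+ T gate cells, a log2 ratio of -0.57 (-0.65 to -0.48), and -0.77 (-0.87 to -0.66) in Treg cells, against -0.12 (-0.43 to 0.19) in conventional CD4 cells and 0.06 (-0.23 to 0.36) in B cells. Ifi214, which shares 3′ sequence with Ifi209, had 60.3 CPM in fl/fl and 40.9 CPM in +/+ T gate cells, a log2 ratio of 0.56 (0.46 to 0.65). In chromosomal order Tagln2 and Aim2 had ratios below 0, Ifi206, Ifi214, Ifi213 and Ifi209 ratios above 0, Ifi208 a ratio below 0, and Mndal and Ifi203 ratios within counting error of 0. The unmeasured Ifi207 and Ifi204 lie next after Ifi208.

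**Figure D5:**
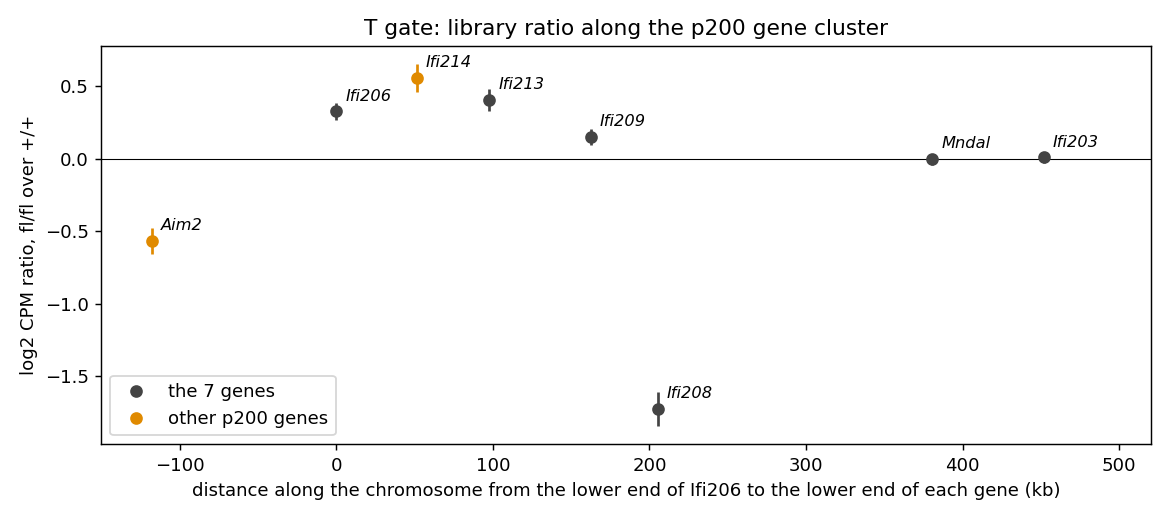
Log2 CPM ratio, fl/fl over +/+, in the T gate (vertical axis) against distance along the chromosome between the lower ends of each gene and Ifi206 (horizontal axis, kb), for the 6 measured members in grey and 2 other p200 genes in orange, with 95% counting intervals. Ifi208 (-1.73) stands 205 kb from Ifi206 (0.33), with Ifi209 (0.15) before it and Mndal (-0.00) after it.

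Genes of the pathways around the family were counted by the same rule, from lists chosen for their known roles. In the T gate 5.79% of all measured genes were lower and 1.83% higher. Of 22 measured DNA-sensing genes there, 0 were higher and 2 lower, with a median log2 ratio of -0.16 beside -0.10 for all measured genes. The lower ones were Sting1, at 30.4 CPM in fl/fl and 64.8 CPM in +/+ (log2 ratio -1.09), and Ikbke, a kinase that activates interferon regulatory factors, at 45.4 and 69.8 CPM (-0.62). The Treg gate, where 9.46% of all measured genes were lower and 2.48% higher, had 3 of 22 lower and 0 higher, Sting1 at 29.7 CPM in fl/fl and 72.9 CPM in +/+ (-1.29), Ikbke and the NF-kB subunit Nfkb1, a share near that of all genes. In conventional CD4 cells 0 of 22 were past the rule either way, where 2.81% of all genes were lower and 2.58% higher. In the B gate Sting1 stood at 28.2 CPM in fl/fl and 20.8 CPM in +/+, a log2 ratio of 0.44 (-0.19 to 1.12). There 1 of 21 DNA-sensing genes, Irf3, was lower and 0 were higher, where 3.49% of all genes were lower and 1.83% higher. In the myeloid gate 2 of 21 were higher, Irf7 and Samhd1, and 0 were lower, where 3.91% of all genes were higher and 5.23% lower. Of 9 measured inflammasome genes in the T gate, Casp4, an inflammatory caspase, was lower, at 26.3 CPM in fl/fl and 40.0 CPM in +/+ (-0.60), and 0 were higher.

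Interferon receptors and signalling genes numbered 16, of which 0 were past the rule in the T gate (median -0.02). Of all genes measured there, 5.79% were lower and 1.83% higher. In the Treg gate 9.46% of all measured genes were lower and 2.48% higher. Of the 16 genes, 0 were higher there and 2 lower, the interferon receptor chain Ifnar1 and the receptor kinase Tyk2. Ifnar1 had 73.6 CPM in fl/fl and 116.3 CPM in +/+ (-0.66), and Tyk2 21.4 and 35.3 CPM (-0.72). In conventional CD4 cells Irf8 was higher, at 14.4 CPM in fl/fl and 8.05 CPM in +/+ (0.84), and 0 were lower. Of all genes measured in that gate, 2.58% were higher and 2.81% lower. In the B gate Irf1, Irf2 and Socs1 were higher and 0 were lower, where 1.83% of all genes were higher and 3.49% lower. In the myeloid gate Irf1 and Irf2 were higher and 0 were lower, where 3.91% of all genes were higher and 5.23% lower. Of 42 measured interferon-stimulated genes in the T gate, Ifi44 was higher, at 15.5 CPM in fl/fl and 7.82 CPM in +/+ (0.99), and Slfn5 lower, at 58.5 and 96.1 CPM (-0.72), with a median of -0.07. In the Treg gate 2 of 40 were higher (Slfn1 and Ifi44) and 3 lower (Isg15, Oas3 and Slfn5), with a median of -0.10 beside -0.13 for all measured genes. In conventional CD4 cells Ifi44 was higher and Oasl1 lower, of 44. The B gate had 4 of 40 higher and 0 lower, where 1.83% of all genes were higher and 3.49% lower, and a median of 0.17 beside -0.07 for all. The myeloid gate had 7 of 45 higher and 2 lower, where 3.91% of all genes were higher and 5.23% lower, and a median of 0.30 beside -0.01 for all.

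Likeness was measured as the Pearson correlation of log2(CPM + 1) over 24 points, 12 gates in 2 libraries, which overlap in cells and share depth. Ifi203 and Mndal were most like each other among the members (r = 0.99), and both were most like Uri1 outside the family (0.98 and 0.98). Ifi206 and Ifi213 followed each other with r = 0.92, while Ifi208 reached 0.66 with Ifi206 and 0.52 with Ifi213. Outside the family Ifi206 was most like Rasgrp1 (0.97), a T cell activator of Ras, and Cblb (0.96), and Ifi204 most like Gm40645 (0.96) and the lysosomal protease Ctsb (0.96). Ifi209 was most like Eif3f (0.96), Ifi213 most like Slc23a2 (0.93) and Ifi208 most like Srpk1 (0.89), the lowest of these best matches. Ifi204 had negative correlations with all 6 other members, between -0.64 and -0.15.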

How the data were processed

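Droplet-based 3′ single-cell RNA-seq (10x Genomics, v3.1 kit) had been done on cells of 2 libraries. The deposited values are raw counts of UMIs per gene and barcode, checked to be whole numbers, from Cell Ranger 7.1.0 per the file headers. The submitters' processing notes name fastp, Seurat 4.1.1 and the builds mm10 and GRCm38, and how barcodes were filtered before deposit is not given in the sources used here. Barcodes were kept at 500 or more genes and up to 10% mitochondrial counts. Gates used lineage marker counts, and no doublet caller was run: barcodes with markers of several lineages fall outside the gates, and leaving out barcodes above 2 times the median UMIs was an alternative. Counts were summed per gate and library and divided by total UMIs (CPM). Levels have exact Poisson intervals, ratios exact conditional binomial intervals, differences between gates Wald intervals, and shares exact Clopper-Pearson intervals. PCR duplicates are removed by UMIs, yet these intervals hold no mouse-to-mouse error. UMIs count transcript ends, so levels are not divided by length. Gene coordinates came from GENCODE M21 (GRCm38), matched for 31107 of 31253 IDs. The named genes were the 7 members, the other p200 genes, up to 4 genes each way per list with the largest T gate ratios and the measured neighbours, plus the calls in the B and myeloid gates. The members and lists were chosen with earlier results of these data known. Of the T cell check markers, 1 is not reported here. The ratio script was tested on simulated data. Python 3.11.15, numpy 2.4.6, scipy 1.17.1 and pandas 2.3.3 were used.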

Additional observations from a re-analysis of the deposited data

Results flagged for a closer look

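The direction of the library ratio turned between T gate cells with 5 or more core interferon-stimulated UMIs and T gate cells with 0 for 4 members. In cells with 5 or more the log2 ratio, fl/fl over +/+, was -0.45 for Ifi203, -0.42 for Mndal, -0.25 for Ifi209 and -0.24 for Ifi206, with intervals below 0. In cells with 0 it was 0.19 for Ifi203, 0.07 for Mndal, 0.19 for Ifi209 and 0.52 for Ifi206, with intervals above 0. With 1 library per genotype the difference between the bins was not tested beyond counting error. With bins set on thinned cells, Ifi206 in cells with 2 or more core UMIs stood at -0.14 (-0.31 to 0.02), an interval that includes 0, and Ifi203, Mndal and Ifi209 at -0.40, -0.37 and -0.31. The smaller core list level of the fl/fl cells in the highest bin (1366 CPM, against 1999 CPM in +/+) moves with these values, and its part in them was not tested.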

How the results depend on the processing

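No paired analysis was possible because each genotype has 1 library, and for the same reason no replicate could be left out. Of 390 member or family ratios recomputed under alternatives, 356 stayed within the main counting interval, 34 left it, and 0 of the called ones turned round. Ifi208 ranged from -1.75 to -1.58 in the T gate (-1.58 in thinned cells), from -3.73 to -2.97 in the B gate and from -3.27 to -1.23 in the myeloid gate, where it is under the floor. With the median gene set to 0, T gate log2 ratios were 0.12 for Ifi203, 0.44 for Ifi206, 0.27 for Ifi209, 0.52 for Ifi213, 0.11 for Mndal and 0.15 for the family sum. Genes past 1.5-fold became 224 higher and 311 lower (main 146 and 461) in the T gate, and 244 higher and 178 lower (main 147 and 280) in the B gate. Thinned cells gave Ifi209 0.0825 in the T gate and the family sum -0.0870 in the myeloid gate. Stricter gates gave a family sum of 0.21 in the B gate and 0.27 in the myeloid gate. Gates by dominance of 1 lineage gave 0.0565 in the T gate and -0.0313 in the B gate. With interferon-stimulated gene bins weighted alike the T gate sum was -0.00238. At 2-fold, higher and lower genes numbered 54 and 147 in the T gate, 72 and 91 in the B gate and 102 and 185 in the myeloid gate. With a floor of 20 CPM, 74 genes were higher in the T gate and 91 in the B gate. The causes of these shifts were not tested beyond what each setting changes by construction. Leaving out barcodes rich in erythroid UMIs and binning thinned cells were chosen after seeing the data. Depth limits Ifi208 outside T cells, with 8 fl/fl UMIs in the B gate and 1 in each of the NK and myeloid gates.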

Other observations

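Of 6 other p200 genes outside the 7, Ifi205, Ifi207 and Ifi211 were highest in myeloid gates, Aim2 was present in T, B and myeloid cells, and Ifi214 was a T and B cell gene, with 56.9 CPM in fl/fl and 43.1 CPM in +/+ B cells against 5.22 and 2.38 CPM in myeloid cells. Ifi205 had 90.6 CPM in fl/fl and 50.8 CPM in +/+ myeloid cells, a log2 ratio of 0.83 (0.53 to 1.14), and 200.7 and 103.3 CPM in dendritic cells, 0.96 (0.61 to 1.31). Ifi211 had 91.1 CPM in fl/fl and 74.0 CPM in +/+ myeloid cells, a log2 ratio of 0.30 (0.02 to 0.58), and 112.7 and 63.3 CPM in dendritic cells, 0.83 (0.38 to 1.29). In monocytes or macrophages neither gene was higher beyond counting error. Ifi205 had 47.6 CPM in fl/fl and 49.6 CPM in +/+ there, -0.06 (-0.84 to 0.70). Ifi211 had 161.1 CPM in fl/fl and 204.9 CPM in +/+, -0.35 (-0.74 to 0.04). Ifi207 had 154.2 CPM in fl/fl and 118.0 CPM in +/+ myeloid cells, a log2 ratio of 0.39 (0.17 to 0.60), but 3 and 7 UMIs in the T gate. Ifi202b had 0 UMIs in every gate of both libraries. Ifi205 and Ifi211 thus passed 1.5-fold in dendritic cells, where none of the 7 members did, and 5.03% of measured genes there were higher.

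Barcodes outside the gates were a mix and not a cell type of their own. T markers not used for gating summed to 1043 CPM in fl/fl and 1198 CPM in +/+, against 1853 and 1953 CPM in the T gate. B markers not used for gating (Pax5, Blk, Fcer2a, Cr2, Fcmr and Cd22) summed to 627.6 and 455.9 CPM. Ratios in these barcodes are therefore no separate repeat of those in the T gate. There Ifi208 had 9.75 CPM in fl/fl, against 38.1 CPM in +/+, a log2 ratio of -1.96 (-2.24 to -1.69), while Ifi203 stood at 0.18 (0.11 to 0.25), Ifi206 at 0.44 (0.32 to 0.56) and Ifi213 at 0.52 (0.37 to 0.67).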
